A study of Mus musculus with 2 samples.

Results

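The genes described here are 34 genes of glycolysis and of the transcriptional response to low oxygen, measured in white blood cells from B16-F10 melanomas. They were found by gene symbol from a list of names that was drawn up with earlier results of these data known, and all 34 symbols were found among the 32245 gene symbols of the count tables. Of them, 21 are called glycolytic below: the glucose and lactate transporters, the enzymes from hexokinase to lactate dehydrogenase and a pair of regulators of phosphofructokinase. Another 10 are targets of the hypoxia-inducible factors (HIFs) outside glycolysis. The remaining 3 are the HIF subunit genes Hif1a and Epas1 and the cytokine gene Mif, and they are given apart.

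Glycolysis splits glucose into pyruvate in the cytosol, and lactate dehydrogenase reduces pyruvate to lactate, which leaves the cell through monocarboxylate transporters. HIF-1 and HIF-2 are transcription factors of an oxygen-labile alpha subunit and a stable partner. In oxygen, prolyl hydroxylases mark the alpha subunit for destruction, and in its absence the factor accumulates and binds a short DNA core, ACGTG, near its target genes. Activated T cells, and macrophages given inflammatory stimuli, are known to raise glycolysis, so in a tumour both oxygen supply and cell activation bear on these genes.

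B16-F10 is a mouse melanoma cell line that grows as a pigmented tumour under the skin. One group of tumours came from B16-F10 cells with a knockout of FDPS, farnesyl diphosphate synthase of the mevalonate pathway (genotype FDPS-knockout). The other came from B16-F10 cells whose genotype is given as WT and whose title reads B16-VC, called control here. The knockout is in the injected tumour cells, so the immune cells of both groups are host cells, and the strain, sex and age of the hosts and the number of knockout clones are not given in the sources used here. Tumours were taken 14 days after injection and digested with collagenase D and DNase I, and viable CD45-positive cells, which are cells of blood origin, were sorted. The question was how the immune cells of FDPS-deficient tumours differ from those of control tumours. Per the labels there were 3 tumours per group, but each group gave 1 droplet single-cell library, with no map from cells to tumours. The comparison is therefore between 2 libraries without replicates, no test was possible, and every interval is a 95% interval that covers counting error only. Where a class of cells had lower transcript levels, fewer expressing cells and less RNA per cell were separated only as far as the values per cell below do so.

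The knockout library held 127186298 unique molecular identifiers (UMIs, each a counted transcript) in 9130 barcodes, and the control library 208936136 UMIs in 10882 barcodes. After filters on genes, mitochondrial UMIs and doublets, 8062 knockout and 8595 control cells remained. The libraries shared 30 barcode sequences. Cells were assigned to classes by counting UMIs of fixed marker genes, and the 7 classes that held 100 cells or more on both sides were compared. They held 1992 knockout and 1748 control CD8 T cells, 585 and 216 natural killer (NK) cells, 122 and 139 B cells, 297 and 1064 monocytes, 434 and 2349 macrophages, 254 and 140 type 1 conventional dendritic cells (cDC1) and 508 and 200 type 2 conventional dendritic cells (cDC2). Each class held all markers of its own list: in CD8 T cells the Cd8a and Cd8b1 sum was at 1146 CPM (counts scaled to 1000000 UMIs) in knockout and 1095 CPM in control cells. The macrophage list, with the complement C1q genes, differed between the libraries within macrophages, at 9624 and 12615 CPM.

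Promoters are shown for members at both ends of the results below, since the HIF core motif is defined by its letters. The sequences are RefSeq's on GRCm38.p6, 30 of the 34 members had an entry, and each line gives the bases upstream of a transcript start that no GENCODE exon covers, 5′ to 3′ on the gene's strand. Capitals mark ACGTG on either strand, so CACGT is the same motif on the opposite strand, and the palindrome CACGTG, which is also the E-box of other factors, holds both. The motif was searched in the 250 bases before each start. Bnip3 (chr7:138909520-138909756, minus strand) and Pgk1 (chrX:106186850-106187099, plus strand) are shown as members lower in the knockout library in all 7 classes, with Ldha (chr7:46845554-46845803, plus strand, within the gene's span in GENCODE vM21 but in no exon). Pfkfb3 (chr2:11502102-11502340, minus strand) is shown as a member that was not lower in any class, and Mif (chr10:75860278-75860527, minus strand) as one lower in all 7 classes whose window has no match.
Bnip3: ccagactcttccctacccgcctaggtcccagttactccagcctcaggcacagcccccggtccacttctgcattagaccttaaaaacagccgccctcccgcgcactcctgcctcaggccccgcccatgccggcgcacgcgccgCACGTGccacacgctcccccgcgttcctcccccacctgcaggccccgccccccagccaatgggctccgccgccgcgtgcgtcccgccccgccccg
Pgk1: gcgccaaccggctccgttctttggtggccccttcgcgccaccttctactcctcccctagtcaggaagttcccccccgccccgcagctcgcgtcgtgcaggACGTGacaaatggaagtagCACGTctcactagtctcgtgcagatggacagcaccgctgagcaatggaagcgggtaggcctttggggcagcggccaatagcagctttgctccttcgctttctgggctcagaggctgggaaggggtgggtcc
Ldha: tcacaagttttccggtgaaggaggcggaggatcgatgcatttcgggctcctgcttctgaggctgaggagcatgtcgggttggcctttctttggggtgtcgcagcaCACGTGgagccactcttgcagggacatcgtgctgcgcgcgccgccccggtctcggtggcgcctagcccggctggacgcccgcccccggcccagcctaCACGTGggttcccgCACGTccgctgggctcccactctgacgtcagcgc
Pfkfb3: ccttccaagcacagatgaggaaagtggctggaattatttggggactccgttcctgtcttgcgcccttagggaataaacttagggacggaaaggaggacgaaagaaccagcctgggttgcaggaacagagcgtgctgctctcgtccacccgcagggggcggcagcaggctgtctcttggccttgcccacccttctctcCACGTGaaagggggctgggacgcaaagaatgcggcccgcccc
Mif: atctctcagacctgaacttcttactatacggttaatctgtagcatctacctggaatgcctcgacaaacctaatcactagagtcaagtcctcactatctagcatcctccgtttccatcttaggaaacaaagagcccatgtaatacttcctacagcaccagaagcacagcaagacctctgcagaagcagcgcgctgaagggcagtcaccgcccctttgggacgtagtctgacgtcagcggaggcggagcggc
The motif was present in at least 1 window of 17 of the 30 matched members (56.7%), of 10 of 20 glycolytic members (50%) and of 6 of 8 HIF targets (75%). Among all 27025 genes with a promoter entry 4998 (18.5%) held it. Some genes have more than 1 window: by window, 20 of 44 of the members (45.5%) and 5444 of 32851 of all genes (16.6%) held it. Another window of Ldha held no match. Members were listed as known glycolysis and HIF genes, so these shares are not a test of the list. A match describes letters and not binding, and the windows leave out enhancers and any site farther upstream.

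Transcripts of the glycolytic members made up a smaller part of all UMIs in the knockout library in each of the 7 classes. In CD8 T cells they were 0.373% (0.371 to 0.375) of UMIs in knockout cells and 0.943% (0.940 to 0.946) in control cells, which was 2.53-fold lower. In monocytes the shares were 0.356% and 0.988% (2.77-fold lower), and in macrophages 0.446% and 1.06% (2.37-fold lower). NK cells held 0.184% and 0.396% (2.15-fold lower). The fold was smaller in both dendritic classes, where cDC2 were at 0.300% and 0.594% (1.98-fold lower) and cDC1 at 0.290% and 0.540% (1.86-fold lower). B cells had the lowest shares in both libraries, 0.104% (0.0986 to 0.110) and 0.187% (0.178 to 0.196), or 1.79-fold lower. The place of B cells as the class with the smallest fold was not kept under all alternatives: without dividing cells the fold was 1.80 in B cells and 1.47 in cDC1, and without ribosomal and mitochondrial genes in the total it was 2.03 and 1.97. The order of the classes by share was the same in both libraries except that monocytes stood above CD8 T cells in the control library and below them in the knockout library. Gapdh was the source of a large part of these UMIs, and without it the shares were 0.271% and 0.661% in CD8 T cells and 0.358% and 0.766% in macrophages.

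The difference was not carried by a few cells. In CD8 T cells the median cell had 0.255% glycolytic UMIs among knockout and 0.775% among control cells, and the upper quartile of knockout cells, 0.396%, lay below the lower quartile of control cells, 0.505%. The same held in monocytes, with an upper quartile of 0.292% in knockout cells and a lower quartile of 0.415% in control cells. Macrophages (0.444% and 0.543%) and cDC2 (0.280% and 0.312%) were also separated at the quartiles, and so were NK cells (0.190% and 0.196%). The quartiles overlapped slightly in B cells, 0.129% against 0.127%, and in cDC1, 0.335% against 0.333%.

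**Figure D1:**
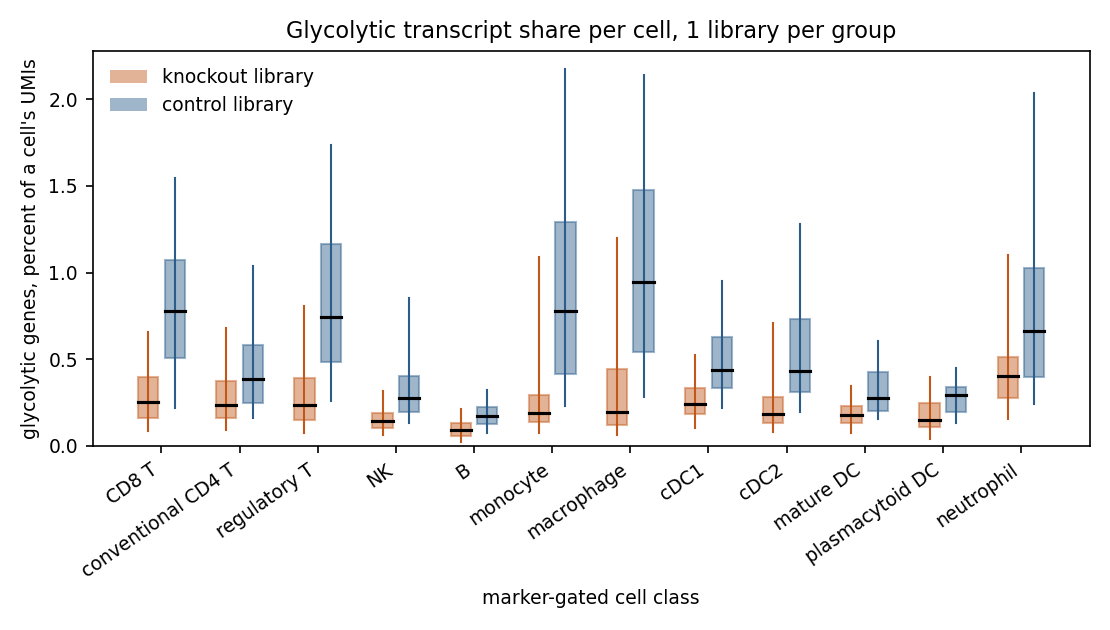
Glycolytic share of each cell's UMIs (percent, vertical axis) by marker-gated class, with the median as a line, quartiles as a box and the 5th to 95th percentile as a thin line over the cells of 1 library per group. In CD8 T cells the medians are 0.255% (knockout) and 0.775% (control), and in B cells 0.0918% and 0.170%; conventional CD4 and regulatory T cells, mature and plasmacytoid dendritic cells and neutrophils are shown but were too few to compare.

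Classes too small to compare had the same direction. The glycolytic share was 0.376% and 0.983% in 154 knockout and 70 control regulatory T cells, 0.348% and 0.498% in 658 and 52 conventional CD4 T cells, and 0.461% and 0.825% in 77 and 94 neutrophils. Mature dendritic cells (90 and 123) were at 0.194% and 0.359%, and plasmacytoid dendritic cells (162 and 29) at 0.185% and 0.287%. Melanoma cells that had passed the sort numbered 11 (knockout) and 193 (control) and held 0.680% and 1.94%. Cells that met no gate, 1406 and 1607, were at 0.373% and 1.02%, so the direction was the same in cells outside the gates.

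Several other properties of the cells differed between the libraries, not all of them in the same direction in each class. Dividing cells, defined by UMIs of at least 2 cell-cycle genes, were 52.9% of knockout and 81.0% of control CD8 T cells and 19.6% and 57.2% of macrophages. This definition was not adjusted for depth. The median depth was lower in the knockout library in CD8 T cells (13227.5 and 21514.5 UMIs) and macrophages (12977 and 21123), higher in NK cells (10844 and 7556) and in B cells (8263.5 and 6022), and nearly equal in cDC1 (21024 and 21033.5) and monocytes (11513 and 11042). The glycolytic share was lower in the knockout library in all of these. Ribosomal protein genes gave fewer of the UMIs in knockout cells of all 7 classes, for example 13.2% and 16.7% in cDC2 and 17.3% and 23.6% in CD8 T cells. The part of division, depth and ribosomal share in the result was not tested beyond the recomputed values below. Melanoma RNA was present in control cells at higher level: the summed level of 6 melanoma genes was 7.68 to 30.2 CPM in the knockout classes and 74.9 to 243 CPM in the control classes, and all 6 were detected in each of the 7 classes in both libraries except Tyr, which was at 0 in knockout B cells. RNA with the profile of the control melanoma cells, scaled to these genes without Sox10, amounted to 0.466% of control CD8 T cell UMIs. It would bring 0.00903 of the 0.943 percentage points of glycolytic UMIs. In control B cells it would bring 0.0293 of 0.187. With that melanoma RNA subtracted, the fold was 2.52 in CD8 T cells, 2.37 in macrophages and 1.56 in B cells. Free RNA was also estimated from all transcripts of each library, and its part was larger in B cells. It would bring 0.0885 of 0.187 percentage points in control B cells and 0.0489 of 0.104 in knockout B cells. In CD8 T cells it would bring 0.0247 of 0.943 (control) and 0.00848 of 0.373 (knockout). The B cell fold with free RNA subtracted is given in the last section. Control monocytes also held 398 CPM of 5 erythroid genes (all 5 detected) against 2.97 CPM in knockout monocytes (4 of 5, with Hba-a1 at 0), and the part of these genes' cells in the result was not tested.

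For single members, a gene was measured in a class where its mean over both libraries was at least 10 CPM. A gene under 10 CPM in 1 library could meet this through the other alone. Epas1, Bnip3, Ankrd37 and Ndrg1 did so in CD8 T cells, and among other cases Vegfa in NK cells and Ankrd37 in cDC1. Where the low side was the knockout library, a call of higher was not open to the gene. To each CPM 5 was added, the log2 ratio of knockout to control was taken, and lower or higher means past 1.5-fold. In CD8 T cells 14 of 17 measured glycolytic members were lower and 1 was higher, where 7.24% of all 8236 measured genes were lower and 17.6% higher. The members' median was -1.31, and that of all genes 0.14. Of 7 measured HIF targets 3 were lower (median -0.53). These were Bnip3, Ankrd37 and Ndrg1, each of which met the mean only through the control library. The count became 5 when libraries were scaled by the median ratio of genes and 6 when ribosomal and mitochondrial genes were left out of the total. The lowest members were Epas1, the HIF-2 alpha subunit, at 1.88 CPM (1.45 to 2.39) in knockout cells and 37.6 CPM (35.9 to 39.4) in control cells (-2.63), Bnip3, a mitophagy receptor, with 8.76 and 46.8 CPM (-1.91), and the lactate exporter Slc16a3 at 21.2 and 78.5 CPM (-1.67). At the other end stood Pfkfb3 at 118 and 74.0 CPM (0.64), Hk1 at 85.7 and 91.2 CPM (-0.09) and Hif1a at 212 and 242 CPM (-0.19).

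In NK cells 12 of 16 measured glycolytic members were lower and 0 higher (median -1.0), and 4 of 7 HIF targets were lower (median -0.90). Among all 8395 genes 6.08% were lower and 8.67% higher, with a median of 0.09. Vegfa, which codes for an endothelial growth factor, was lowest at 9.48 CPM (7.30 to 12.1) and 44.8 CPM (35.6 to 55.6), a ratio of -1.78. Tpi1 (92.9 and 291 CPM, -1.60) and Aldoa (184 and 520 CPM, -1.47), successive enzymes of the pathway, came next. Hk1 (74.9 and 58.5 CPM, 0.33), Egln1 (71.4 and 59.0 CPM, 0.25) and Pfkfb3 (82.5 and 70.5 CPM, 0.21) had the highest ratios, all within 1.5-fold.

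B cells had the fewest cells in the 2 libraries together and the lowest median depth in both. There 11 of 16 measured glycolytic members were lower and 1 higher (median -0.83), and 2 of 6 HIF targets were lower (median -0.05), where 10.4% of all 8179 genes were lower and 13.8% higher. Those 2 HIF targets, Ankrd37 and Bnip3, met the mean of 10 CPM only through the control library, so a call of higher was not open to them. Ankrd37, an ankyrin-repeat gene known as a HIF target, was lowest at 4.12 CPM (1.34 to 9.61) and 32.1 CPM (21.7 to 45.8), or -2.02, on 5 and 30 UMIs. Bnip3 (5.76 and 26.7 CPM, -1.56) and Tpi1 (32.1 and 98.4 CPM, -1.48) followed. Pfkfb3 (102 and 56.7 CPM, 0.80), Hif1a (105 and 67.4 CPM, 0.61) and Bnip3l (88.9 and 71.7 CPM, 0.29) stood at the other end.

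Monocytes were the class in which members differed most. Of 17 measured glycolytic members 14 were lower and 1 higher (median -1.39), and all 9 measured HIF targets were lower (median -1.01), where 10% of all 7904 genes were lower and 18.4% higher, with a median of 0.12. Mif was lowest at 279 CPM (262 to 296) and 1003 CPM (986 to 1021), or -1.83, followed by Aldoa at 314 and 1108 CPM (-1.80) and Bnip3 at 64.5 and 234 CPM (-1.78). The highest were Pfkfb4 at 71.3 and 43.5 CPM (0.65), Hk2 at 137 and 153 CPM (-0.15) and Hif1a at 254 and 327 CPM (-0.36).

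In macrophages 11 of 17 measured glycolytic members were lower and 1 higher (median -0.88), and 6 of 10 HIF targets were lower (median -0.63). Differences past 1.5-fold were also more frequent among all 8318 genes of this class, with 15.4% lower and 15.6% higher and a median of 0.01. Adm, which codes for the vasodilator peptide adrenomedullin, was measured only here, at 1.93 CPM (1.03 to 3.31) and 18.2 CPM (17.1 to 19.4), or -1.74. It met the mean of 10 CPM only through the control library, so lower was the call open to it. That call, counted among the 6, was kept in 9 of 13 alternatives, and in the rest Adm was not measured. Gapdh was at 872 and 2918 CPM (-1.74) and Pkm at 416 and 1335 CPM (-1.67). Pfkfb4 (40.6 and 24.5 CPM, 0.63), P4ha1 (288 and 207 CPM, 0.46) and Hif1a (202 and 148 CPM, 0.44) had the highest ratios.

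Both dendritic classes had aldolase C among their lowest members, a gene measured in no other class. In cDC1 11 of 18 measured glycolytic members were lower and 1 higher (median -0.85) and 3 of 7 HIF targets lower (median -0.20), where 6.38% of all 8231 genes were lower and 12.9% higher. The lowest were Tpi1 with 132 and 352 CPM (-1.38), Aldoc at 13.5 and 40.8 CPM (-1.31) and Pgk1 at 153 and 377 CPM (-1.28). At the other end were Pfkfb3 (156 and 91.4 CPM, 0.74), Pfkfb4 (14.4 and 8.96 CPM, 0.47) and Hif1a (109 and 79.7 CPM, 0.43). In cDC2 13 of 19 measured glycolytic members were lower and 0 higher (median -0.92), and 3 of 8 HIF targets lower and 1 higher (median -0.44), where 7.23% of all 8336 genes were lower and 12% higher. Aldoc was at 15.0 and 49.4 CPM (-1.44), Mif at 282 and 721 CPM (-1.34) and Pgam1 at 138 and 356 CPM (-1.33). P4ha1 was the member that was higher, and Pfkfb3 (115 and 86.3 CPM, 0.39) and Pfkfb4 (38.0 and 30.9 CPM, 0.26) lay within 1.5-fold.

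**Figure D2:**
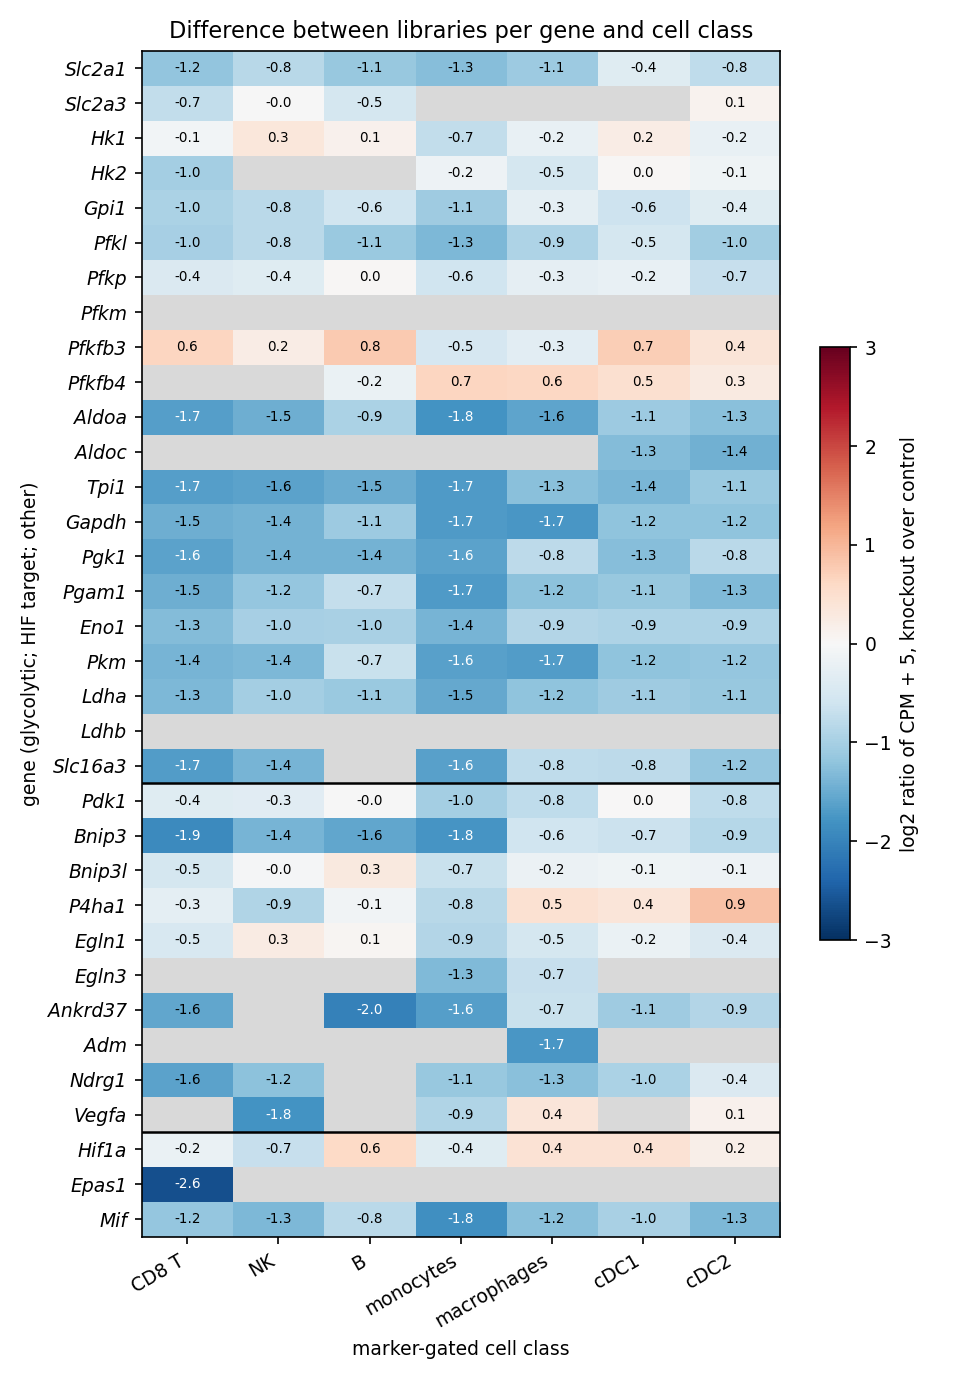
Log2 ratio of CPM plus 5, knockout over control library, for each of the 34 members (rows, grouped as glycolytic, HIF target and other) in 7 cell classes (columns). Grey marks genes under 10 CPM in the mean; the rows from Aldoa to Slc16a3 are below 0 in all measured classes, while those of Hk1, Pfkfb3, Pfkfb4 and Hif1a are near or above 0 in most.

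Short genes had lower ratios than other genes, and several members are short. Among the measured genes of the lowest quartile by span on the genome the median ratio was between -0.20 (monocytes) and -0.34 (macrophages), and 14.1% (NK cells) to 31.3% (macrophages) were lower. Of the glycolytic members 4 or 5 per class belonged to that quartile: Aldoa, Tpi1, Gapdh and Pgam1 in all 7, and Aldoc in the dendritic classes. With Mif, 5 of the 10 members that were lower in all 7 classes are among the short genes. The part of gene length in their ratios was not tested.

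By step of the pathway, glucose uptake differed with the transporter. Slc2a1 encodes GLUT1, the transporter known to follow activation and HIF, and was lower in 6 of 7 classes. In monocytes it was at 127 CPM (115 to 139) and 314 CPM (304 to 324), in macrophages at 90.9 and 198 CPM, and in CD8 T cells at 30.7 and 76.3 CPM. The exception was cDC1, at 38.4 and 50.4 CPM (-0.35). Slc2a3 encodes GLUT3, and was lower only in CD8 T cells (94.4 and 161 CPM, -0.74) of the 4 classes in which it was measured. In NK cells it was at 81.5 and 82.0 CPM (-0.01) and in cDC2 at 41.9 and 38.3 CPM (0.11). Slc2a1 UMIs therefore made up less of the pair in the knockout library: 24.5% (23.3 to 25.8) and 32.1% (31.3 to 33.0) in CD8 T cells, 29.6% and 44.2% in NK cells and 57.1% and 71.7% in cDC2. In macrophages the share was 94.0% and 94.6%, with overlapping intervals.

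The hexokinases, which trap glucose in the cell as glucose 6-phosphate, differed little. Hk1 was lower only in monocytes (55.9 and 95.8 CPM, -0.73) and lay between -0.23 and 0.33 in the other 6 classes. Hk2, the isoenzyme that HIF and activation induce, was lower only in CD8 T cells (21.7 and 49.3 CPM, -1.02) of 5 classes in which it was measured, and was at 106 and 154 CPM in macrophages (-0.52) and 69.0 and 67.0 CPM in cDC1 (0.04). Within the pair Hk1 gave 79.8% of UMIs in knockout and 64.9% in control CD8 T cells, and in macrophages 37.4% and 32.8%. Monocytes had the opposite order, 29% (25.6 to 32.4) and 38.5% (36.8 to 40.2).

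Gpi1 and the phosphofructokinases carry the next steps, the isomerase reaction and the committed phosphorylation. Gpi1 was lower in 5 of 7 classes, among them CD8 T cells at 213 and 418 CPM (-0.96), though its calls in cDC1 and B cells were lost in 4 and 3 of 13 alternatives, and within 1.5-fold in macrophages (384 and 470 CPM, -0.29) and cDC2 (230 and 296 CPM, -0.36). Of the phosphofructokinase isoenzymes, Pfkl was lower in 6 of 7 classes, with 37.3 and 102 CPM in monocytes (-1.34) and 35.2 and 53.1 CPM in cDC1 (-0.53), the exception. Pfkp was lower only in monocytes (183 and 281 CPM, -0.61) and cDC2 (272 and 446 CPM, -0.70), and was at 238 and 324 CPM in CD8 T cells (-0.44). Pfkm, the muscle isoenzyme, was measured in 0 classes. Pfkl UMIs were a smaller part of the Pfkl and Pfkp sum in knockout cells, at 11.3% and 16.9% in CD8 T cells, 18.6% and 38.1% in B cells and 24.8% and 35.2% in macrophages.

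The regulators that make fructose 2,6-bisphosphate, an activator of phosphofructokinase, were the glycolytic members that stood apart. Pfkfb3 was lower in 0 classes and higher in CD8 T cells, B cells and cDC1, while in monocytes (149 and 214 CPM, -0.51) and macrophages (128 and 162 CPM, -0.33) it was below 0 but within 1.5-fold. The higher call in CD8 T cells was lost in 5 of 13 alternatives, among them leaving out cells with division genes (125 and 103 CPM, 0.27). That in cDC1 was lost in 3, also without dividing cells (157 and 123 CPM, 0.34). Pfkfb4 was higher in monocytes and macrophages, with values given above, the monocyte call being lost under median ratio scaling and thinning, and lower in 0 of the 5 classes in which it was measured. The Pfkfb3 promoter shown above holds 1 copy of CACGTG.

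The steps from aldolase to pyruvate kinase, through which each carbon of glucose passes to pyruvate, were the most uniform. Aldoa, Tpi1, Gapdh, Pgk1, Pgam1, Eno1 and Pkm were each lower in all 7 classes. For Pgk1, the first ATP-yielding enzyme of the pathway, levels were 223 CPM (218 to 228) and 686 CPM (678 to 693) in CD8 T cells, 92.4 and 257 CPM in NK cells and 45.3 and 128 CPM in B cells. In monocytes they were 221 and 686 CPM, in macrophages 397 and 682 CPM and in cDC2 187 and 329 CPM. Control levels of Pgk1 were thus nearly alike in CD8 T cells, monocytes and macrophages, and knockout levels were not. For Aldoa the ratio ran from -0.95 in B cells (129 and 254 CPM) to -1.80 in monocytes, and for Tpi1, the triose isomerase, from -1.12 in cDC2 (182 and 403 CPM) to -1.69 in monocytes (244 and 798 CPM). Gapdh lay between -1.08 in B cells (224 and 480 CPM) and -1.74 in macrophages, and Pkm between -0.67 in B cells (89.7 and 145 CPM) and -1.67 in macrophages. Eno1, the enolase of most tissues, lay between -0.88 and -1.39, and is uncertain because a near-identical copy, Eno1b, took 578 UMIs of the knockout and 2137 of the control library. In B cells the calls of Pgam1 (42.0 and 71.7 CPM, -0.71) and Pkm were lost in 4 of 13 alternatives, among them the subtraction of melanoma RNA, which also holds these transcripts. The Eno1 call in cDC1 was lost when dividing cells were left out (79.0 and 104 CPM, -0.38).

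The end of the pathway followed the same direction. Ldha, the lactate dehydrogenase subunit that favours lactate formation, was lower in all 7 classes, from 191 CPM (180 to 201) and 390 CPM (362 to 420) in NK cells (-1.01) to 266 and 781 CPM in monocytes (-1.54). Ldhb was measured in 0 classes, and Ldha gave 97.7% to 100% of the pair's UMIs. Slc16a3, which encodes the lactate exporter MCT4, was lower in all 6 classes in which it was measured, with 62.1 and 201 CPM in monocytes (-1.62), 75.3 and 131 CPM in macrophages (-0.76) and 38.7 and 93.5 CPM in cDC2 (-1.17). In cDC1 the call (18.9 and 36.5 CPM, -0.79) was lost with a stricter gate and without dividing cells (24.7 and 28.5 CPM, -0.17).

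**Figure D3:**
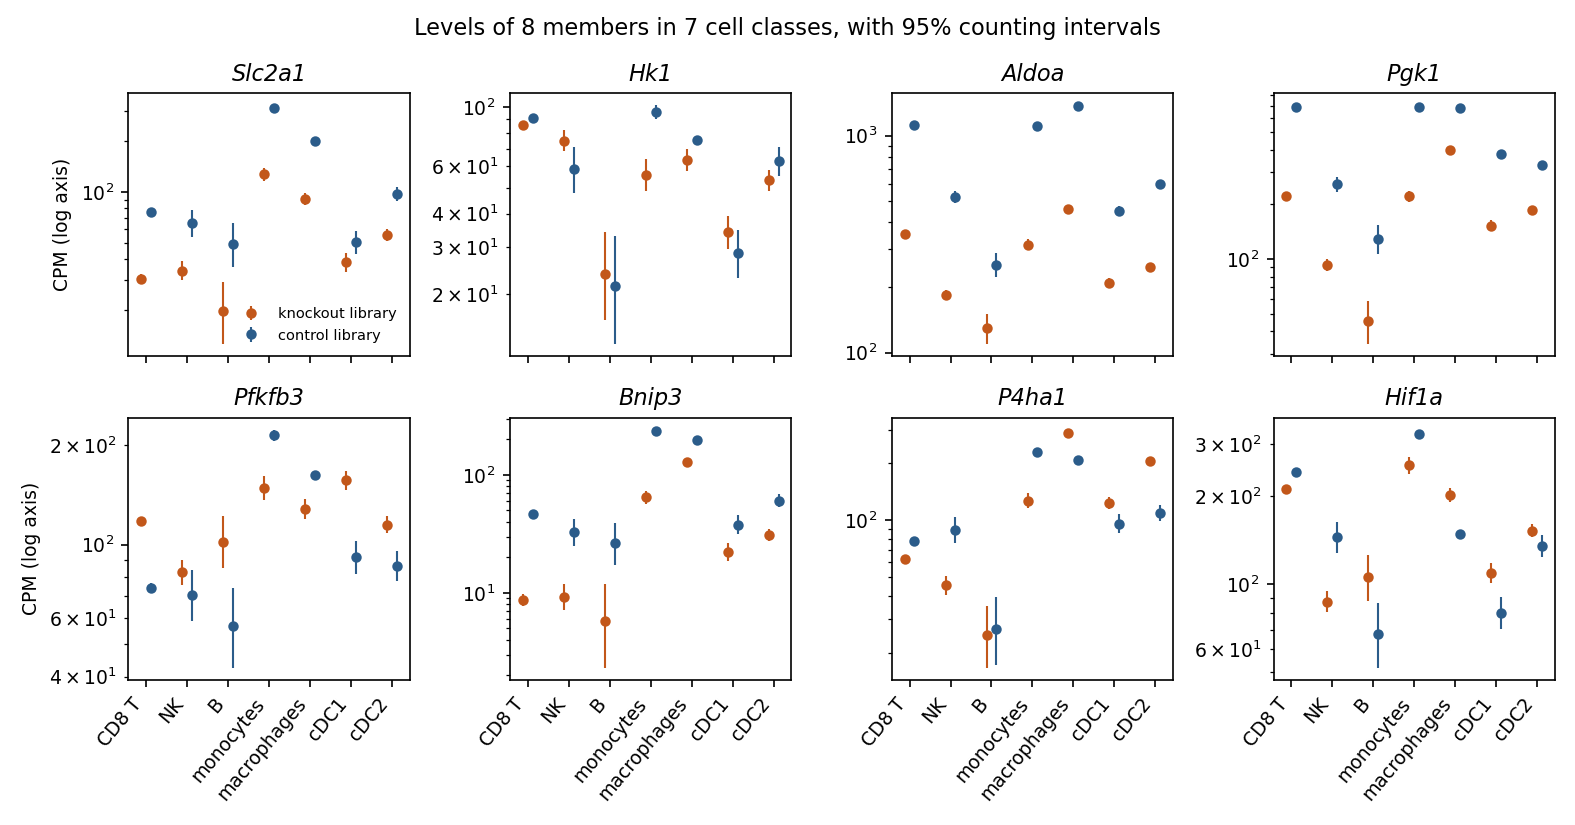
Levels (CPM, log axis, a separate scale per gene) of 8 members in 7 classes of the knockout and control libraries, with exact Poisson 95% intervals that cover counting error only. Slc2a1, Aldoa, Pgk1 and Bnip3 lie lower in the knockout library in each class shown, Hk1 differs by less than 1.5-fold outside monocytes, and Pfkfb3, P4ha1 and Hif1a change sides between classes.

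HIF targets outside glycolysis were less uniform. Bnip3 was lower in all 7 classes, and its relative Bnip3l, another mitophagy receptor, only in monocytes (72.1 and 117 CPM, -0.66). Bnip3 therefore made up 11.4% (10.2 to 12.6) of the UMIs of the pair in knockout CD8 T cells and 31.8% (30.7 to 32.9) in control CD8 T cells, 6.09% and 27.2% in B cells, 47.2% and 66.6% in monocytes and 58.6% and 65.5% in macrophages. In macrophages its difference was close to the threshold, at 129 CPM (121 to 138) and 197 CPM (193 to 200), or -0.59, and this call was lost in 2 of 13 alternatives. The calls in B cells and cDC1 were each lost in 1, thinning and a stricter gate. Ankrd37 was lower in all 6 classes in which it was measured, with 9.78 and 38.4 CPM in CD8 T cells (-1.55) and 18.6 and 69.1 CPM in monocytes (-1.65). Its difference in cDC1 (7.94 and 22.2 CPM, -1.07) was lost among cells without division genes (10.6 and 11 CPM, -0.03). Ndrg1, a stress-induced gene, was lower in 5 of 6 classes, with 3.33 CPM (2.75 to 3.99) and 20.2 CPM (18.9 to 21.5) in CD8 T cells (-1.60), and within 1.5-fold in cDC2 (31.5 and 44.5 CPM, -0.44).

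Pdk1, the kinase that keeps pyruvate from the mitochondrial dehydrogenase, was lower in 3 of 7 classes: monocytes (21.1 and 47.5 CPM, -1.01), macrophages (33.6 and 60.6 CPM, -0.76) and cDC2 (21.5 and 40.3 CPM, -0.77). In CD8 T cells it was at 28.5 and 38.1 CPM (-0.36). The prolyl hydroxylase Egln1 was lower only in monocytes (71.3 and 135 CPM, -0.87). Its relative Egln3 was measured in monocytes (59.7 and 158 CPM, -1.34) and macrophages (27.4 and 47.1 CPM, -0.68) and was lower in both. Egln1 gave 54.4% of the pair's UMIs in knockout and 46.0% in control monocytes. These hydroxylases are both sensors and targets of the HIF system.

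Vegfa and P4ha1 differed in direction between classes. Vegfa was lower in NK cells and in monocytes (69.9 and 134 CPM, -0.89), but in macrophages it was at 101 CPM (93.6 to 109) and 76.9 CPM (74.6 to 79.2), or 0.37, and in cDC2 at 15.5 and 13.8 CPM (0.12). P4ha1, a subunit of the enzyme that hydroxylates collagen, was lower in NK cells (45.3 and 89.1 CPM, -0.90) and monocytes (127 and 229 CPM, -0.83) and higher in cDC2 (205 CPM, 196 to 215, and 109 CPM, 99.3 to 120, or 0.88). Whether classes differ in these ratios was not tested, since there was 1 library per group.

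The HIF subunit genes were measured in different numbers of classes. Hif1a, whose product is controlled mainly by protein stability, was lower in NK cells (87.1 and 144 CPM, -0.70), higher in B cells, a call lost in 7 of 13 alternatives, and within 1.5-fold in the other 5 classes, with the values of most given above and 152 and 135 CPM in cDC2 (0.17). Epas1 was measured only in CD8 T cells. A UMI of it was found in 1.81% of knockout and 30.8% of control CD8 T cells. With each cell thinned to 2000 UMIs, which left out 11 cells of each library, the shares were 0.252% (0.0820 to 0.588) and 6.39% (5.29 to 7.64). In monocytes, which had too few Epas1 UMIs to be measured, thinned shares were 0.678% and 0.283% at median depths of 11513 and 11042 UMIs. The control level in CD8 T cells thus lay above that of the other class, and the knockout level did not. Epas1 was lower both among dividing CD8 T cells (1.91 and 38.8 CPM) and among the rest (1.78 and 22.4 CPM).

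Mif, a cytokine that has been described as a HIF target, was lower in all 7 classes, from 121 and 216 CPM in B cells (-0.81) to the monocyte values above. In CD8 T cells it was at 540 CPM (532 to 548) and 1221 CPM (1211 to 1231), or -1.17, in macrophages at 492 and 1173 CPM (-1.25) and in cDC1 at 243 and 485 CPM (-0.98). The call in cDC1 was lost when dividing cells, 43.7% of knockout and 60.7% of control cDC1, were left out (275 and 365 CPM, -0.40). Over the members, 125 calls of lower and 7 of higher were made in the 7 classes, and 10 members were lower in all 7.

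Detection per cell, at equal depth, showed the same order for the members most often lower. With cells thinned to 2000 UMIs, a Pgk1 transcript was found in 25.5% (23.6 to 27.5) of knockout and 62.5% (60.2 to 64.8) of control CD8 T cells, against 67.2% and 93.2% at full depth. In macrophages it was found in 29.5% and 62.9% of thinned cells, and in monocytes in 19.7% and 58.7%. Bnip3 was found in 0.909% and 8.06% of thinned CD8 T cells, in 5.76% and 31.7% of monocytes and in 14.0% and 28.2% of macrophages. In NK cells (1.73% and 5.16%) and cDC2 (4.18% and 6.03%) the Bnip3 intervals of these shares overlapped, while the lower level of Bnip3 past 1.5-fold was kept there in 13 of 13 alternatives, thinning included. Few cells were left out by thinning, 11 of 1992 knockout and 11 of 1748 control CD8 T cells and 4 of 434 and 9 of 2349 macrophages.

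Within classes the difference was recomputed in parts set by detected UMIs of marker genes, since detected division genes, granzymes and macrophage type markers were unequal between the libraries. Detection was not adjusted for depth, and the median depth of CD8 T cells and macrophages was higher in the control library. The parts may therefore hold cells of unlike state in the 2 libraries. Among CD8 T cells without division genes (938 knockout and 332 control cells) the glycolytic share was 0.225% and 0.632%, 2.80-fold lower, and among dividing ones 0.432% and 0.967%, 2.24-fold lower. CD8 T cells with Tcf7, a gene of memory-like T cells, and no UMI of granzymes C to F (602 and 86 cells) held 0.275% and 0.484%, or 1.76-fold lower, with 11 of 17 measured glycolytic members lower and 1 higher, where 6.01% of all genes were lower. In these cells Slc2a1 was at 31.4 and 36.7 CPM (-0.19), within 1.5-fold, while Pgk1 was at 156 and 376 CPM (-1.24). Cells with granzymes C to F and no Tcf7 numbered 27 (knockout) and 668 (control), too few to compare, and in the control library they had the highest share, 1.06%. CD8 T cells with neither (1356 and 981) held 0.402% and 0.834%, 2.08-fold lower. The difference was thus present in each part compared, and smallest in the Tcf7 cells.

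Macrophages differed more by type. Those with at least 3 UMIs of Spp1 or Arg1 and no Cd163, a state of tumour macrophages, numbered 43 of the knockout macrophages (9.91%) and 983 of the control macrophages (41.8%). Their glycolytic share was 1.01% (0.986 to 1.03) and 1.31% (1.30 to 1.31), only 1.30-fold lower, and 3 of 18 measured glycolytic members were lower (Aldoa, Gapdh and Pkm) and 2 higher (Gpi1 and Aldoc), with a median of -0.11 against -0.07 for all genes, of which 16.7% were lower. Pgk1 was at 1142 and 884 CPM in them (0.37), Slc2a1 at 221 and 290 CPM (-0.39), Bnip3 at 365 and 297 CPM (0.29) and Vegfa at 321 and 125 CPM (1.32). The HIF targets summed to 1800 CPM in knockout and 1456 CPM in control cells of this type. Macrophages with Cd163, a gene of resident-type macrophages, and under 3 UMIs of Spp1 and Arg1 (76 and 71 cells) held 0.247% and 0.660%, 2.67-fold lower, with 10 of 17 glycolytic members lower where 21.7% of all genes were. In them Pkm was at 231 and 929 CPM (-1.98) and Gapdh at 478 and 1855 CPM (-1.95). Macrophages with neither (307 and 1247) held 0.341% and 0.928%, 2.72-fold lower. The difference over all macrophages thus held in 2 of 3 types and was much smaller in the Spp1 or Arg1 type, which is scarce in the knockout library. Macrophages without division genes were 3.10-fold lower (0.398% and 1.23%) and dividing ones 1.75-fold lower (0.559% and 0.978%), with 8 of 17 glycolytic members and 14.2% of all genes lower in the latter. Of 9 HIF targets measured in dividing macrophages 2 were lower and 2 higher, with a median of 0.16 and sums of 882 and 825 CPM. Among macrophages without division genes 8 of 10 were lower, with a median of -1.08 and sums of 816 and 1439 CPM.

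**Figure D4:**
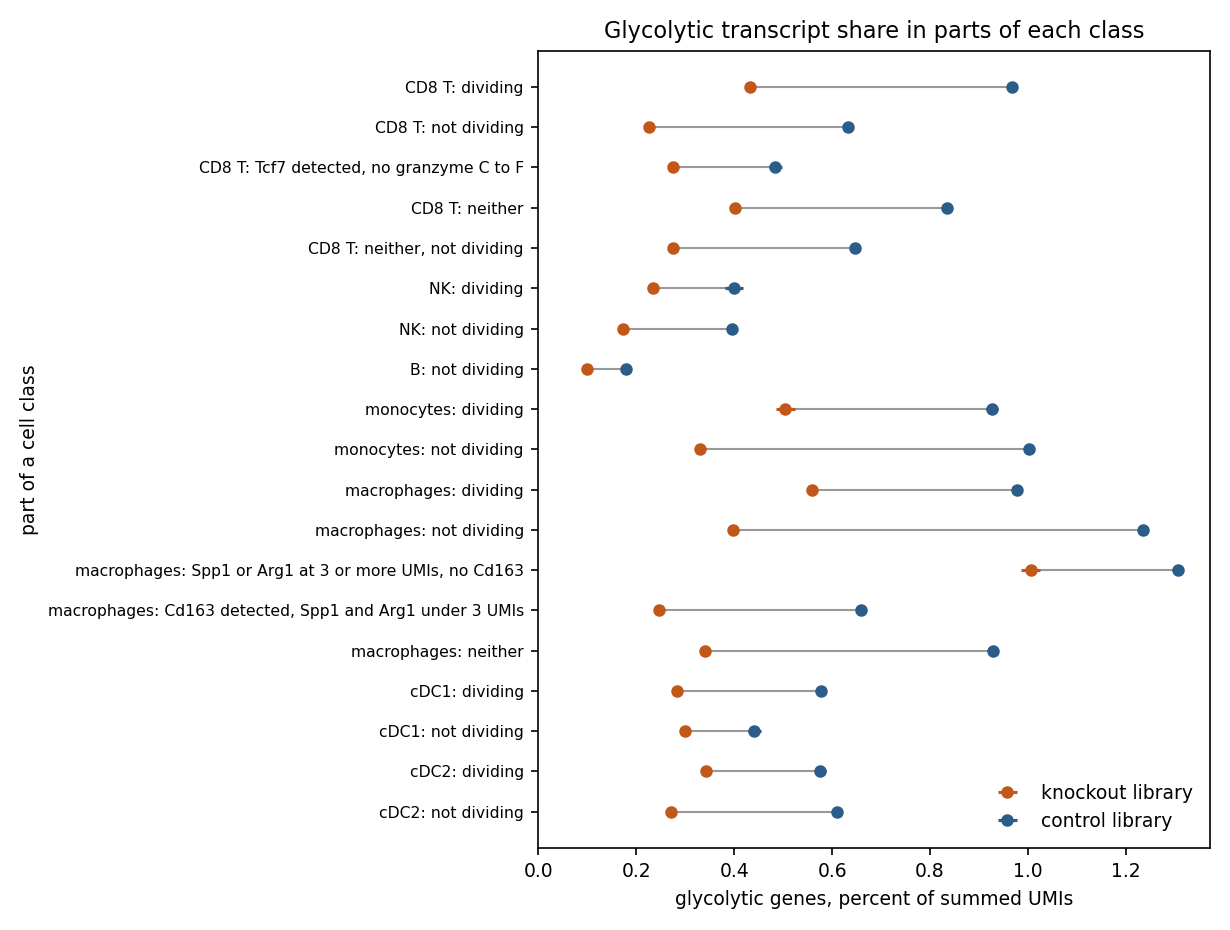
Glycolytic transcripts as a percent of summed UMIs (horizontal axis) in parts of each class with at least 30 cells in both libraries, with 95% counting intervals mostly hidden by the points. Knockout points lie left of control points in every part, and the nearest pairs by ratio are Spp1 or Arg1 macrophages (1.01% and 1.31%) and non-dividing cDC1 (0.300% and 0.441%).

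Genes of neighbouring pathways, from lists of fixed membership, mostly lay within 1.5-fold, except those of the respiratory chain in macrophages. Of 8 measured genes that carry pyruvate into the mitochondrion or regulate its dehydrogenase, 0 were lower in 4 classes and 1 in the other 3. The 7 genes of the pentose phosphate pathway, a branch from glucose 6-phosphate, had 1 or 2 lower per class, and the 13 genes of the tricarboxylic acid cycle between 1 and 5, the latter in macrophages. None of these 3 lists had a member that was higher in any class. Of all genes 7.24% were lower in CD8 T cells, 10% in monocytes and 15.4% in macrophages. Thus 1 of 13 cycle genes in monocytes and 1 of 7 pentose phosphate genes in macrophages are shares near or below those of all genes. In CD8 T cells 3 of 13 cycle genes and 2 of 7 pentose phosphate genes are larger shares, and so are 5 of 13 cycle genes in macrophages. Larger too are 2 of 7 pentose phosphate genes in B cells (10.4% of all genes) and 3 of 13 cycle genes in cDC2 (7.23%). Subunits of the respiratory chain had 17 of 75 lower in CD8 T cells, 9 in NK cells, 17 in B cells and 5 in monocytes. In macrophages 44 were lower, in cDC1 18 and in cDC2 13, and 0 were higher in any class. The monocyte count is a smaller share than the 10% of all genes lower there. In each other class the count is a larger share than that of all genes. Those shares of all genes were 7.24% in CD8 T cells, 6.08% in NK cells, 10.4% in B cells and 15.4% in macrophages. In cDC1 and cDC2 they were 6.38% and 7.23%. The medians of the subunits, from -0.27 in monocytes to -0.63 in macrophages, lay nearer to 0 than those of the glycolytic members.

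Other genes of the HIF system were lower in part. Of 26 listed, 8 of 16 measured were lower and 1 higher in CD8 T cells (median -0.65), 8 of 16 and 0 in monocytes (-0.67), and 6 of 19 and 0 in macrophages (-0.33). The counts were 7 of 16 lower and 1 higher in NK cells (-0.37), 6 of 14 and 3 in B cells (-0.22), 6 of 13 and 0 in cDC1 (-0.35) and 4 of 14 and 2 in cDC2 (-0.30). Shares of all genes lower in these classes were 6.08% to 15.4%. Hmox1, heme oxygenase, differed in direction: it was lower in macrophages (337 and 1001 CPM, -1.55) and monocytes (272 and 795 CPM, -1.53) and higher in cDC2 (54.4 and 27.2 CPM, 0.88), a difference between classes that was not tested. At lower levels Hmox1 was also lower in NK cells (2.52 and 24.0 CPM, -1.95), B cells (1.65 and 28.9 CPM, -2.35) and cDC1 (4.39 and 16.7 CPM, -1.21). In these 3 classes it met the mean of 10 CPM only through the control library. The macrophage marker list was lower there too, at 26.1 and 232 CPM in NK cells, 241 and 435 CPM in B cells and 44.1 and 139 CPM in cDC1. The part of macrophage RNA in these Hmox1 values was not tested. Hilpda, a lipid droplet protein, had the lowest ratio of the list in CD8 T cells (10.3 and 81.8 CPM, -2.50), monocytes (38.1 and 387 CPM, -3.18), macrophages (-1.94) and cDC2 (7.83 and 51.7 CPM, -2.14). Bhlhe40, a transcription factor that T cell activation also induces, was at 66.3 and 244 CPM in CD8 T cells (-1.81). Kdm3a, a histone demethylase and known HIF target, was at 62.5 and 47.4 CPM there (0.36), and Arnt, the stable HIF partner, at 54.7 and 31.1 CPM (0.73). Of 21 other glycolysis genes most were not measured. Hk3, the hexokinase of myeloid cells, was lower in monocytes (99.4 and 212 CPM, -1.06) and macrophages (107 and 253 CPM, -1.21), and the glucose transporter gene Slc2a6 was higher in both (30.2 and 15.8 CPM, 0.76; 23.2 and 6.10 CPM, 1.35).

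Across 24 class and library sums, the members varied together to different degrees. Pearson's r with the summed glycolytic level, given as a description since the sums share library and depth, was 0.98 for Pgk1, 0.97 for Pkm, Tpi1 and Aldoa and 0.95 for Mif, a member outside the sum. It was 0.83 for Bnip3, 0.72 for Ankrd37, 0.40 for Hif1a, 0.12 for Slc2a3, 0.07 for Pfkfb4 and -0.25 for Pfkfb3. Glycolytic members are part of the summed level, so their r is that of a part with its whole. Control melanoma cells are among the 24 sums. The genes outside the list with the highest r were Higd1a (0.90), Sra1 (0.89), Timm8b (0.89), Bsg (0.88) and Elob (0.86).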

How the data were processed

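The deposited files hold UMI counts per gene and barcode. Per the file headers, the authors made them with Cell Ranger 7.2.0. The submitters' processing notes name the build mm10, and which annotation was used is not given in the sources. Barcodes with at least 200 genes and under 10% mitochondrial UMIs were kept. The automatic threshold of Scrublet (scanpy 1.11.5) marked 0% of knockout and 1.70% of control cells, so the highest scores were removed at 0.8% per 1000 barcodes (635 and 820 cells). Classes were set by UMIs of marker genes that were listed beforehand, with thresholds set after seeing the data (macrophages needed at least 12 C1q UMIs); 5349 knockout and 6417 control cells were gated. Counts were added up over the cells of a class in each library and scaled to 1000000 UMIs (CPM). Differences are log2 ratios of CPM plus 5, called lower or higher past 1.5-fold for genes with a mean of at least 10 CPM. The ratio step was tested on simulated counts. Intervals are exact Poisson for levels and exact Clopper-Pearson for shares of cells or of a pair. With 1 library per group no test was made. Members and lists were chosen with earlier results of these data known. The text names all members, the 3 lowest and 3 highest per class, isoenzyme pairs and, of other lists, genes among the 2 lowest and 2 highest. Both rows named Aldoa were summed. Gene spans are from GENCODE vM21, in which 99.8% of the gene identifiers were found. Tools were python 3.11.15, numpy 2.4.6, pandas 2.3.3 and scipy 1.17.1.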

Additional observations from a re-analysis of the deposited data

Results flagged for a closer look

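In a pair of members the 2 libraries differed in opposite directions in different cell classes. P4ha1 was lower in the knockout library in NK cells (log2 ratio -0.90) and monocytes (-0.83) and higher in cDC2 (0.88). Hif1a was lower in NK cells (-0.70) and higher in B cells (0.61). The difference between the classes was not tested, since each group is 1 library. The P4ha1 ratio in cDC2 fell within 1.5-fold, at 0.55, when cells were thinned to 2000 UMIs, and the Hif1a call in B cells was kept in 6 of 13 alternatives.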

How the results depend on the processing

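The summed glycolytic level was lower in the knockout library in all 7 classes under each other way of processing that was applied to it. The subtraction of melanoma RNA was 1 of these, added after seeing the data. Of the 12 planned ways, adding 1 CPM in place of 5 and using no filter on low values do not enter this sum, so it was not recomputed under them. Folds that moved by more than counting error are given here, and the cause was not tested. Thinning to 2000 UMIs gave 2.69 in CD8 T cells, 3.27 in monocytes, 3.03 in macrophages, 1.79 in cDC1 and 2.11 in cDC2. Equal weight per cell gave 2.7 in CD8 T cells, 3.03 in monocytes, 3.05 in macrophages and 2.13 in cDC2. Without dividing cells the folds were 2.80 in CD8 T cells, 2.30 in NK cells, 3.03 in monocytes, 3.10 in macrophages, 1.47 in cDC1 and 2.25 in cDC2. With doublets kept they were 2.56 in CD8 T cells, 2.33 in NK cells and 2.17 in B cells. Subtraction of free RNA gave 2.03 in NK cells and 1.65 in B cells, and that of melanoma RNA 2.05 and 1.56. Scaling by the median ratio of genes gave 2.84 in CD8 T cells, 2.32 in NK cells, 3.06 in monocytes, 2.00 in cDC1 and 2.11 in cDC2. A mitochondrial limit of 20% gave 2.49 in CD8 T cells, 2.33 in macrophages and 1.81 in cDC1, and one of 5% gave 2.56 in CD8 T cells, 2.82 in monocytes, 2.42 in macrophages and 1.97 in cDC1. Without ribosomal and mitochondrial genes in the total the folds were 2.76 in CD8 T cells, 2.30 in NK cells, 2.03 in B cells, 2.83 in monocytes, 2.48 in macrophages, 1.97 in cDC1 and 2.08 in cDC2. A stricter gate gave 2.51 in CD8 T cells, 1.65 in B cells, 2.68 in monocytes, 2.52 in macrophages and 1.73 in cDC1. The count of lower HIF targets in CD8 T cells moved from 3 to 5 (median ratio scaling) and 6 (ribosomal and mitochondrial genes left out), and in B cells from 2 to 1 (free RNA subtracted, and thinned cells). Counts of lower glycolytic members stayed within 1.5 times in 91 of 91 recomputations. List medians moved by more than counting error in 57 of 91 recomputations for glycolytic members and 53 of 91 for HIF targets. The glycolytic median in cDC1 ranged from -1.02 to -0.49, and the HIF target median from -0.35 to 0.09 in cDC1 and from -0.38 to 0.06 in B cells, so that in these classes its sign depended on the setting. Of 125 calls of lower 106 were kept in all alternatives, and 2, Pgam1 and Pkm in B cells, changed sign in at least 1. Of 7 calls of higher 2 were kept in all. Scaling by total UMIs left the median of all genes at 0.14 in CD8 T cells and 0.12 in monocytes, and under 0.1 in the other 5 classes. No paired analysis was possible because each group is 1 library. The depth of B cells limits calls of low genes, and 1 library per group limits every comparison.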
